A study of Homo sapiens with 9 samples.

Results

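The enzymes described here are the 10 genes LOX, LOXL1, LOXL2, LOXL3, LOXL4, PLOD1, PLOD2, PLOD3, P4HA1 and P4HA2, taken by name from a count table of 26475 gene symbols. They were followed in A375 cells, an established human melanoma line, exposed during 24 h to DMSO alone or to TP-472 at 5 µM or at 10 µM, with 3 libraries for each treatment. DMSO is the solvent of the inhibitor and serves as the vehicle control. TP-472 is a small molecule that binds the bromodomains of BRD9 and BRD7, which are subunits of SWI/SNF chromatin remodelling complexes. The comparison asks how the inhibitor changed the transcripts of these enzymes in this line. All results come from 1 cell line in culture and 1 time point, and they measure mRNA and not protein or enzyme activity.

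Collagen chains are modified at several steps, and the genes belong to 3 enzyme classes that act at different steps. Inside the endoplasmic reticulum, prolyl 4-hydroxylase turns proline into 4-hydroxyproline, which holds the triple helix together at body temperature, and P4HA1 and P4HA2 encode alternative catalytic alpha subunits of it. In the same compartment the lysyl hydroxylases encoded by PLOD1, PLOD2 and PLOD3 turn lysine into hydroxylysine, a site for sugar attachment and for stable crosslinks. Outside the cell, the copper-dependent lysyl oxidases encoded by LOX and LOXL1 to LOXL4 oxidise lysine and hydroxylysine side chains, and the resulting aldehydes crosslink collagen and elastin. Both hydroxylase classes need iron, oxygen and 2-oxoglutarate, with ascorbate as a reducing agent. LOX, LOXL2, PLOD1, PLOD2, P4HA1 and P4HA2 are known targets of the hypoxia-inducible factor HIF in many cell types.

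Several of these genes are known HIF targets. No change was resolved for LOX and LOXL1, but most of the 10 genes were lower with TP-472 in these libraries. The 250 bases before their RefSeq start sites (GRCh38.p14) were therefore searched on both strands for 2 motifs. These were ACGTG, the core of the hypoxia response element, and GGGCGG, the GC box. Sequences were found for 12 start sites of 9 of the 10 genes. The stretches below hold matches and lie outside annotated exons, and they are written 5′ to 3′ on the strand of the gene, with the matches in capitals. PLOD2 (chr3:146161185-146161434, minus strand) and LOX (chr5:122078361-122078509, minus strand) are shown for ACGTG. PLOD1 (chr1:11934467-11934693, plus strand) and LOXL4 (chr10:98268251-98268444, minus strand) are shown for the GC box. The PLOD1 and PLOD2 stretches lie within introns of longer annotated transcripts of the same gene, and the other pair lies just before the annotated gene.
PLOD2: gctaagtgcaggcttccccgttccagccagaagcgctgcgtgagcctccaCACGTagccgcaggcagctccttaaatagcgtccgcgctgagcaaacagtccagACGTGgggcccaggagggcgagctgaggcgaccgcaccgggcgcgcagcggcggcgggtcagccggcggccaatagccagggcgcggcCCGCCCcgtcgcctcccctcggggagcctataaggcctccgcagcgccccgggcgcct
LOX: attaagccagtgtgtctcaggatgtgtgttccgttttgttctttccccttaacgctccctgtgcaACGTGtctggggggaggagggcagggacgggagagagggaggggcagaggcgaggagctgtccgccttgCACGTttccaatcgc
PLOD1: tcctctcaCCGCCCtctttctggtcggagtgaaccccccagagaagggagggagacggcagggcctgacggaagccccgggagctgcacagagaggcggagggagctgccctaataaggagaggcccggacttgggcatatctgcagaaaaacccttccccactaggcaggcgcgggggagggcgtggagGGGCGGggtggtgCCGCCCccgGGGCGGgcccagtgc
LOXL4: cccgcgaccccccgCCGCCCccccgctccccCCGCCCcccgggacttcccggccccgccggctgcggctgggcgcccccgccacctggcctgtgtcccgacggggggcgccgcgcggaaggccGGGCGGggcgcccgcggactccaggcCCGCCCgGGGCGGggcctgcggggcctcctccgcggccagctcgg
ACGTG occurred in 5 of the 12 windows, which belong to LOX, PLOD2 and P4HA1, against 18.5% of 35093 promoter windows of the same length. LOX holds 3 of the 5, and the windows of its start sites 2 and 3 overlap. In PLOD2 the matches stand 200 and 146 bases before the start, in P4HA1 the match stands 86 bases before it, and LOX has 4 at its first start site. The GC box occurred in 6 of the 12 windows, each of another gene, against 42.6% of all windows, with 6 matches in LOXL4 and 4 in PLOD1. The AP-1 site TGANTCA and the E-box CACGTG, which contains ACGTG, had no match in the 12 windows, against 6.57% and 6.34% of all windows. These are matches of letters and not sites shown to be bound.

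The libraries held 42483091 to 51298130 counts, and all 10 genes passed the filter on low counts, as did 16417 genes in all. Levels are given as CPM, the count of a gene scaled to a fixed number of counts per library, on library sizes scaled by TMM, a method that sets the bulk of genes equal between libraries. SOX10, a neural crest and melanocyte factor, stood at 417 CPM in DMSO, and AXL and TNC, which mark dedifferentiated melanoma, at 523 and 645 CPM, whereas the pigment enzyme TYR was at 0 in every library. Replicate 1 of 10 µM stood apart, since 8.26% of the variance of its departure from the group mean followed gene length and GC content, compared with 3.36% and 4.37% in the other 10 µM libraries and at most 0.425% elsewhere. Counts from ribosomal RNA genes took 8.79% to 10.9% of each DMSO library, 10.6% to 16.6% at 5 µM and 8.20% to 19.9% at 10 µM. Library preparation was strand-specific, but the sources used here do not say if reads were counted by strand.

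TP-472 lowered most of the enzyme genes expressed in A375 cells, and it lowered them further at the higher dose. A gene was called when edgeR's quasi-likelihood test gave an adjusted p under 0.05 and the fold change was at least 1.5. At 10 µM, 7 of the 10 genes were called lower (LOXL2, LOXL3, LOXL4, PLOD1, PLOD2, P4HA1 and P4HA2), against 10.5% of all genes tested. At 5 µM, 4 of the 10 were called lower (LOXL2, LOXL3, LOXL4 and PLOD1), against a background of 2.72%. Without the fold limit the counts were 8 of 10 at 10 µM (background 18.0%) and 7 of 10 at 5 µM (background 5.81%).

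None of the 10 was called higher, against 8.57% of all genes at 10 µM and 2.14% at 5 µM. All 10 had a negative log2 fold change at both doses, as did 8076 of the 16417 genes tested at 5 µM and 8050 at 10 µM. The signs of LOX and LOXL1 carry little weight, since neither gene passed the test at either dose. LOX at 5 µM, at −0.01, kept its sign in 14 of 19 alternative fits. The count of the 10 genes higher at an unadjusted p under 0.05 was also 0 in edgeR. DESeq2 and limma-voom called 0 higher. The median log2 fold change of the 10 genes was −0.55 at 5 µM and −1.09 at 10 µM, while that of all tested genes was 0.0054 and 0.011. Leaving out replicate 1 of 10 µM left the counts at 4 and 7.

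The 8 abundant genes, that is all but LOX and LOXL1, showed no overlap of library values between any of the 3 groups. The share of all tested genes with such separate groups was not counted, so this is only a description of these genes. A design of 3 libraries against 3 cannot give an exact permutation p below 0.1 for a single gene, so the tests below are those of the fit over all genes.

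**Figure D1:**
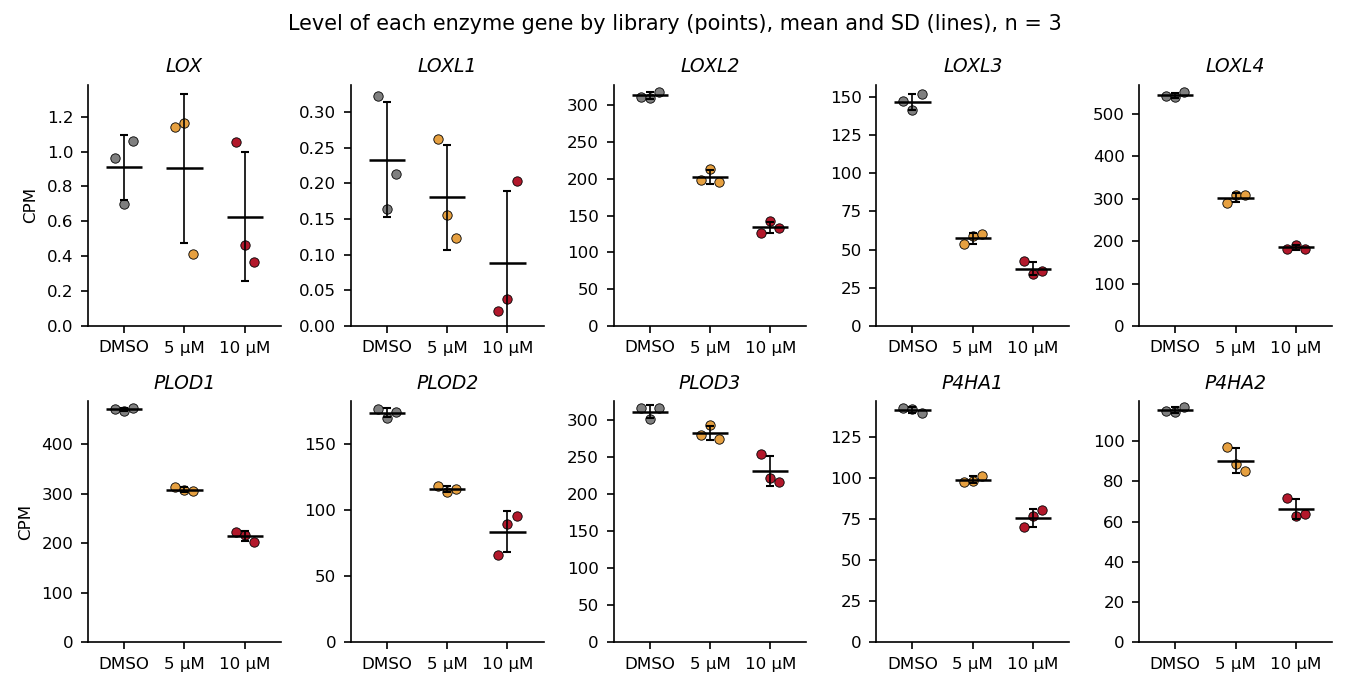
CPM of each enzyme gene (y axis, a separate linear scale from 0 in each panel) in the 9 libraries by treatment (x axis). Points are libraries, horizontal lines are group means and bars are the SD (n = 3); a bar that runs below 0 is cut at the axis. In 8 panels the 3 groups stand apart in descending order, while LOX and LOXL1 stay near or below 1 CPM and overlap.

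Among the lysyl oxidases, LOXL3 fell the most. LOXL3 (chr2:74532414-74555690, minus strand; gene positions here and below are GENCODE's on GRCh38) belongs to the branch of the family with scavenger receptor domains. It measured 147, 141 and 152 CPM in DMSO, 53.4, 58.8 and 60.0 CPM at 5 µM, and 42.4, 34.0 and 36.2 CPM at 10 µM. The highest treated library thus lay far below the lowest control library. Its log2 fold change was −1.35 ± 0.09 (SE, adjusted p = 3.23e-05) at 5 µM and −1.97 ± 0.10 (adjusted p = 7.27e-07) at 10 µM, which left 39.1% and 25.6% of the DMSO level. Of its exonic bases, 19.3% lie opposite exons of HTRA2, a mitochondrial protease, and DOK1, a docking protein. At 10 µM HTRA2 rose by 0.37 ± 0.11 (adjusted p = 0.0242), and DOK1 did not pass the test (log2 fold change −0.38 ± 0.18, adjusted p = 0.136).

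LOXL4 (chr10:98247690-98268250, minus strand) was the most abundant lysyl oxidase. It measured 543, 539 and 551 CPM in DMSO, 289.7, 309.7 and 309 CPM at 5 µM, and 182, 192 and 181 CPM at 10 µM. Its libraries fell into 3 tight and separate groups. LOXL4 fell by 0.85 ± 0.06 on the log2 scale at 5 µM (adjusted p = 4.68e-05) and fell by 1.56 ± 0.06 at 10 µM (adjusted p = 2.39e-07).

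LOXL2, which oxidises type IV collagen among other substrates, measured 311, 310.4 and 319 CPM in DMSO, 198, 214 and 195 CPM at 5 µM, and 127, 142 and 133 CPM at 10 µM. It fell with the same order of groups as LOXL4 but by less. The log2 fold change was −0.63 ± 0.07 (adjusted p = 0.000542) at 5 µM and −1.22 ± 0.07 (adjusted p = 1.86e-06) at 10 µM. The 5 µM value lies close to the 1.5-fold limit, and with the trend in gene length and GC content removed LOXL2 and PLOD1 missed that limit at 5 µM, at −0.58 and −0.55.

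LOX (chr5:122063195-122078360, minus strand), the founding member of the family, was nearly silent in these cells. It measured 0.966, 0.700 and 1.06 CPM in DMSO, 1.14, 1.16 and 0.411 CPM at 5 µM, and 1.05, 0.461 and 0.367 CPM at 10 µM, from 18 to 60 counts in a library. The groups overlapped. Its log2 fold change at 10 µM was −0.54 with a 95% interval from −1.75 to 0.68 (adjusted p = 0.489), and leaving out single libraries moved it between −0.26 and −1.13, the latter without 10 µM replicate 1. At 5 µM it was −0.01, from −1.21 to 1.19 (adjusted p = 0.996). A difference of 2-fold either way was therefore not detectable at this depth at 5 µM.

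LOXL1 (chr15:73925989-73952137, plus strand), which acts mainly on elastic fibres, had 1 to 16 counts in a library. It measured 0.322, 0.165 and 0.213 CPM in DMSO, 0.263, 0.155 and 0.123 CPM at 5 µM, and 0.0207, 0.0385 and 0.204 CPM at 10 µM. The groups overlapped here too, and the interval at 10 µM ran from −3.36 to 0.58 around −1.39 (adjusted p = 0.259). Without 10 µM replicate 3 the value was −2.87 (adjusted p = 0.0502), and without 10 µM replicate 1 it was −0.94.

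The lysyl hydroxylases were all well expressed and did not move alike. PLOD1 (chr1:11934205-11975538, plus strand) mainly hydroxylates lysines within the triple helix. It measured 470.0, 466 and 473 CPM in DMSO, 313, 307 and 305 CPM at 5 µM, and 223, 216 and 203 CPM at 10 µM. Its groups were narrow and separate. PLOD1 fell by 0.61 ± 0.06 on the log2 scale at 5 µM (adjusted p = 0.000352) and fell by 1.14 ± 0.06 at 10 µM (adjusted p = 1.44e-06). No exon of another annotated gene overlaps it.

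PLOD2 (chr3:146069440-146163653, minus strand) hydroxylates the telopeptide lysines that set the type of crosslink. It measured 177, 170.2 and 174 CPM in DMSO, 118, 114 and 116 CPM at 5 µM, and 66.3, 90.0 and 95.7 CPM at 10 µM. Replicate 1 of 10 µM was the lowest, and that is the library with the strong trend in length and GC content. PLOD2 fell by 1.05 ± 0.12 at 10 µM (adjusted p = 0.000135), and by 0.91 with that replicate left out. At 5 µM its log2 fold change of −0.58 ± 0.12 (adjusted p = 0.0129) missed the fold limit by a narrow margin.

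PLOD3 (chr7:101205977-101218420, minus strand), which carries both lysyl hydroxylase and glycosyltransferase activity, changed the least of the 8 abundant genes at both doses. It measured 317, 301 and 317 CPM in DMSO, 279.9, 294 and 275 CPM at 5 µM, and 255, 222 and 217 CPM at 10 µM. The groups did not overlap, yet their gaps were small beside those of PLOD1. Of its exonic bases, 7.56% lie opposite exons of ZNHIT1. At 10 µM ZNHIT1 did not pass the test (log2 fold change 0.37 ± 0.16, adjusted p = 0.106), and it was highest in replicate 1, at 122 CPM. The part of this overlap in the PLOD3 values was not tested. PLOD3 passed the test at 10 µM (log2 fold change −0.43 ± 0.08, adjusted p = 0.00205) and not at 5 µM, where the change was −0.14 with a 95% interval from −0.31 to 0.03 (adjusted p = 0.308). Its 10 µM value was −0.22 with the trend in length and GC content removed. Its 5 µM value passed in edgeR without 10 µM replicate 1 (adjusted p = 0.00556) and with DMSO and 5 µM alone fitted (adjusted p = 0.0039). In 17 of 19 alternative fits it did not pass.

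Both prolyl 4-hydroxylase alpha subunits fell. P4HA1 (chr10:73007217-73096974, minus strand) is the main isoform in most cells. It measured 143, 142 and 139.6 CPM in DMSO, 98.0, 98.4 and 101 CPM at 5 µM, and 70.1, 77.2 and 80.8 CPM at 10 µM. It fell by 0.51 ± 0.07 on the log2 scale at 5 µM (adjusted p = 0.00189) and fell by 0.90 ± 0.07 at 10 µM (adjusted p = 1.43e-05). Its groups stood clear of each other.

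P4HA2 (chr5:132191838-132295315, minus strand) measured 115, 115 and 117 CPM in DMSO, 97.3, 88.5 and 85.0 CPM at 5 µM, and 71.9, 63.1 and 63.9 CPM at 10 µM. Its estimates were the smaller of the pair at both doses, with 95% intervals that overlapped those of P4HA1. P4HA2 fell by 0.36 ± 0.08 at 5 µM (adjusted p = 0.0212) and fell by 0.80 ± 0.08 at 10 µM (adjusted p = 6.60e-05). Of its exonic bases 6.45% lie opposite P4HA2-AS1, a transcript at 0.836 to 4.10 CPM. P4HA2 did not reach the fold limit at 5 µM, and when any DMSO library, or 5 µM replicate 2 or 3, was left out its adjusted p was above 0.05 (up to 0.102), with log2 fold changes no smaller in size than −0.32.

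**Figure D2:**
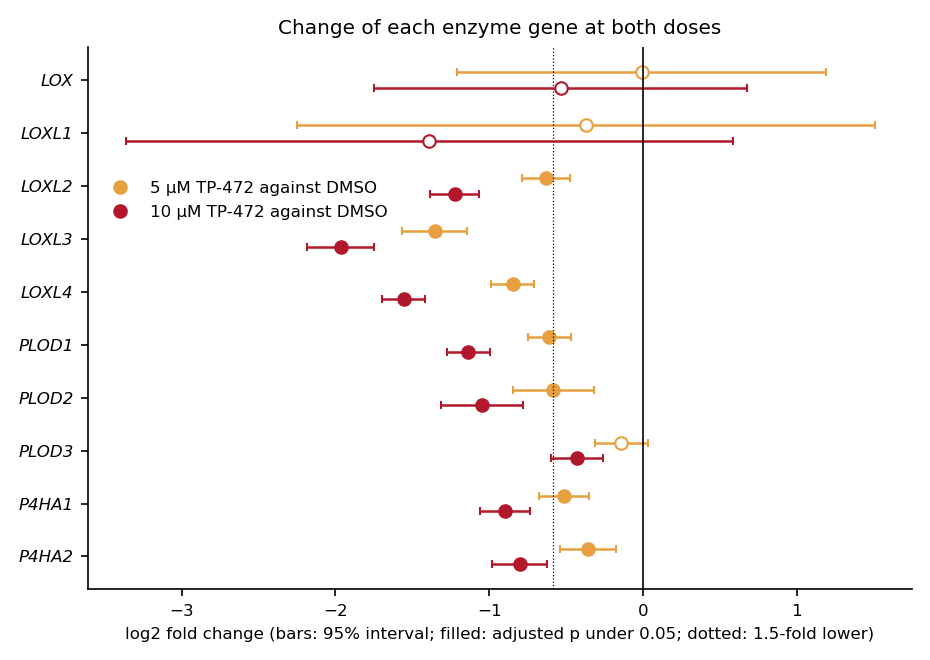
Log2 fold change against DMSO (x axis) of each enzyme gene (y axis) at 5 µM and 10 µM, with 95% intervals from edgeR's fit of the 9 libraries. Filled points passed an adjusted p of 0.05 and the dotted line marks a 1.5-fold decrease; LOXL3 stands farthest left of the abundant genes and PLOD3 closest to 0.

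Doubling the dose lowered most of the enzyme genes again, though some of these steps depended on the setting. Between 5 µM and 10 µM, 3 of the 10 genes (LOXL2, LOXL3 and LOXL4) were called lower against 2.59% of all genes, 8 of 10 without the fold limit against 5.53%, and 0 were higher at any threshold against 1.42%. Of the called genes, LOXL4 stepped by −0.71 ± 0.06 (adjusted p = 0.000186), LOXL3 by −0.61 ± 0.09 (adjusted p = 0.0041) and LOXL2 by −0.59 ± 0.07 (adjusted p = 0.00102). PLOD1 passed the test at −0.53 ± 0.06 (adjusted p = 0.00101), below the fold limit. The steps of PLOD2 and PLOD3, −0.47 and −0.29, had adjusted p-values of 0.0405 and 0.046, and 0.0596 and 0.0754 with the replicate number as a block. They passed an adjusted p of 0.05 in only 10 and 5 of 19 alternative fits. With single libraries left out, their adjusted p in edgeR ran from 7.15e-05 to 0.129 and from 6.58e-06 to 0.158. They passed in 3 and 1 of these 9 fits. P4HA1 and P4HA2 each passed in 17 of the 19, but not in edgeR's fit of only these 2 groups (adjusted p = 0.111 and 0.0776). The count was 2 without 10 µM replicate 1 and 2 in DESeq2, where LOXL2 missed the fold limit at −0.56 and −0.58. Leaving out 5 µM replicate 2, 5 µM replicate 3 or 10 µM replicate 2 also gave 2. So did DESeq2-type scaling factors, a filter of at least 1 CPM in 3 libraries, the fit of 2 groups and the removal of ribosomal RNA genes.

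The ranking of the genes by level was read per length, as CPM per kb of exon. The divisor was the union of all annotated exons of a gene, from 3093 bases in P4HA1 to 8502 bases in P4HA2. The ranking between genes, and the sums and shares of the classes below, therefore depend on the annotation. In DMSO, LOXL4 led at 149 ± 1.66 CPM per kb (SD, n = 3) and PLOD1 followed at 88.3 ± 0.641. PLOD3 at 55.0 ± 1.59 and LOXL2 at 54.9 ± 0.805 did not differ beyond their spread. Below them came P4HA1 at 45.8 ± 0.584, LOXL3 at 33.6 ± 1.24, PLOD2 at 22.7 ± 0.452 and P4HA2 at 13.6 ± 0.162, each clear of its neighbour. LOX at 0.164 ± 0.0340 and LOXL1 at 0.0641 ± 0.0222 closed the order.

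At 10 µM LOXL4 still led at 50.7 ± 1.59 CPM per kb. PLOD3 at 40.8 ± 3.60 and PLOD1 at 40.2 ± 1.90 were then level within their spread. LOXL3, at 8.61 ± 0.995, had moved below PLOD2, at 11.0 ± 2.04, though their ranges met between 8.67 and 9.72 CPM per kb.

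The summed level of each class was lower at each dose, and the lysyl oxidases kept the smallest part of their DMSO level. Differences between classes were not tested. The summed lysyl oxidase level was 238 ± 3.67 CPM per kb in DMSO, 132 ± 4.77 at 5 µM and 82.9 ± 2.08 at 10 µM, that is 55.4% and 34.9% of DMSO. The lysyl hydroxylases went from 166 ± 2.57 to 123 ± 1.71 and 91.9 ± 3.28 CPM per kb, or 74.1% and 55.4% of DMSO. The prolyl 4-hydroxylase alpha subunits kept 71.9% and 54.5%, with 59.4 ± 0.433, 42.7 ± 0.464 and 32.4 ± 1.26 CPM per kb. Sums over libraries did not overlap between groups in any class, which is also given only as a description.

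**Figure D3:**
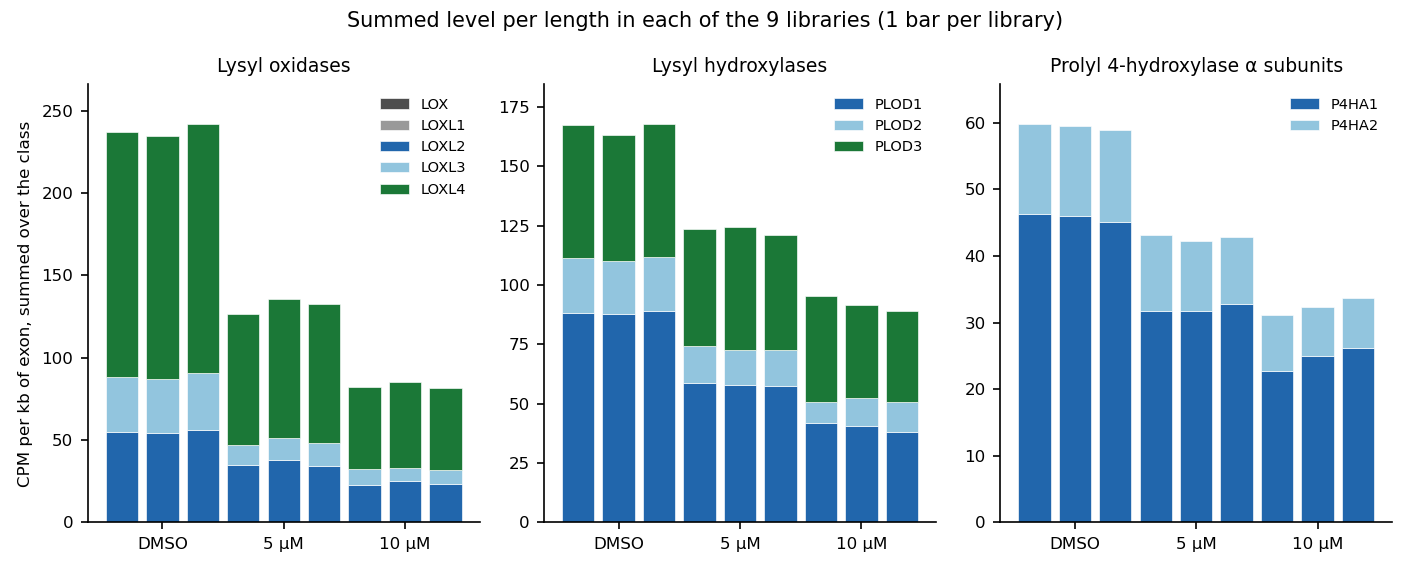
Summed CPM per kb of exon (y axis) of the 3 enzyme classes in each of the 9 libraries (1 bar each, grouped by treatment on the x axis), stacked by gene. Every class steps down with dose, and PLOD3 takes a growing part of a shrinking lysyl hydroxylase bar.

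Within 2 of the classes the shares of single genes differed between the groups. PLOD3 made up 32.6% to 33.4% of the lysyl hydroxylase level in the DMSO libraries, 39.9% to 41.7% at 5 µM and 42.8% to 47.1% at 10 µM, and PLOD1 went from a mean of 53.2% to 47.1% and 43.7%. Among the lysyl oxidases LOXL3 went from 13.8% to 14.4% in DMSO to 9.68% to 10.4% at 5 µM and 9.14% to 11.9% at 10 µM, while the mean share of LOXL2 went from 23.1% to 26.9% and 28.3%. For each of these 4 shares the 6 TP-472 libraries lay clear of the 3 DMSO libraries, which is given as a description with no test. LOXL4 made up 62.4% to 62.9% in the DMSO libraries, 62.4% to 63.8% in those at 5 µM and 60.8% to 61.5% in those at 10 µM, so its 10 µM libraries lay slightly below all others. P4HA1 had mean shares of 77.1%, 75.1% and 75.9% of its pair, with ranges that overlapped between DMSO and each dose.

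For the abundant gene of each class with the smallest p at 10 µM, the closest profiles among 13678 genes were taken by Euclidean distance of centred log2 CPM over the 9 libraries. The nearest to LOXL4 were SREBF1, a regulator of lipid synthesis, at 0.193, ZCCHC24 at 0.215 and TNS2, a focal adhesion protein, at 0.240. The nearest to PLOD1 were the caveolar coat gene CAV1 at 0.120, the integrin subunit ITGB5 at 0.156 and the metalloproteinase inhibitor TIMP2 at 0.162. The nearest to P4HA1 were the endothelin-converting protease ECE1 at 0.102, the kinase gene ZAK at 0.138 and PSIP1 at 0.154. Of the enzyme genes themselves, LOXL2 was the 18th nearest to PLOD1, at 0.230, and the 36th nearest to LOXL4, at 0.430.

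The partners of the hydroxylases in the endoplasmic reticulum were called lower about as often as all tested genes, 10.5% of which were lower at 10 µM. Of 8 other prolyl hydroxylation genes 1 was called lower at 10 µM, the prolyl 3-hydroxylase P3H3 at −0.85 ± 0.10 (adjusted p = 0.00020). CRTAP, the scaffold of the prolyl 3-hydroxylase complex, fell by 0.47 ± 0.06 (adjusted p = 0.000285) without reaching the fold limit. P4HB, the beta subunit that P4HA1 and P4HA2 both require, had a mean of 548 ± 5.69 CPM in the DMSO libraries and 514 ± 49.9 CPM in the 10 µM libraries (−0.09 ± 0.08, adjusted p = 0.386). PPIB, a prolyl isomerase, measured 325 ± 13.0 and 391 ± 98.1 CPM (adjusted p = 0.180).

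Of 12 procollagen folding and export genes 1 was called lower at 10 µM, the collagen chaperone gene SERPINH1 at −0.83 ± 0.08 (adjusted p = 5.10e-05). FKBP10, a chaperone needed for telopeptide lysyl hydroxylation by the PLOD2 product, fell by 0.42 ± 0.08 (adjusted p = 0.00329), below the fold limit. Among the galactosyltransferases that glycosylate hydroxylysine, COLGALT1 fell by 0.32 ± 0.06 (adjusted p = 0.00396) and COLGALT2 had a log2 fold change of −0.24 ± 0.19 (adjusted p = 0.382). The procollagen processing list gave 1 lower and 1 higher of 6 tested at both doses. Over all genes 10.5% were lower and 8.57% higher at 10 µM, and 2.72% and 2.14% at 5 µM. PCOLCE, the enhancer of the C-proteinase, fell by 1.79 ± 0.10 at 10 µM (adjusted p = 1.84e-06), and the protease gene TLL2 rose by 1.19 ± 0.18 (adjusted p = 0.000775) from 1.73 ± 0.122 CPM.

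The substrates of the enzymes gave mixed counts. For comparison, 10.5% of all genes tested were called lower and 8.57% higher at 10 µM. Of 9 fibrillar collagen chains 4 were called lower and 1 higher at 10 µM, with COL5A2 falling by 1.35 ± 0.14 (adjusted p = 7.30e-05) and COL5A3 rising by 1.08 ± 0.19 (adjusted p = 0.00204). Of 6 type IV chains 2 were called lower and 0 higher. COL4A1 and COL4A2, the paired chains of most basement membranes, fell, with log2 fold changes of −2.17 ± 0.16 (adjusted p = 8.14e-06) and −1.95 ± 0.09 (adjusted p = 5.83e-07). Of 9 elastic fibre genes 3 were called lower at 10 µM, among them EFEMP2, which brings LOX to elastin, at −1.51 ± 0.10 (adjusted p = 3.14e-06) and EMILIN1 at −1.28 ± 0.08 (adjusted p = 2.88e-06).

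Genes that supply copper and ascorbate, the cofactors of these enzymes, showed no call in the lower direction at 10 µM. Over all genes tested 10.5% were called lower at that dose. Of 7 copper supply genes 2 were called higher at 10 µM against 8.57% of all genes, 5 were higher without the fold limit, the median log2 fold change was 0.50, and 0 were called lower, with 0 lower at an unadjusted p under 0.05 and 0 lower in DESeq2 and limma-voom. SLC31A2, a copper transporter, rose by 0.84 ± 0.14 (adjusted p = 0.00145), and COX17, a mitochondrial copper chaperone, rose by 0.77 ± 0.18 (adjusted p = 0.00952), with a count of 1 higher when replicate 1 of 10 µM was left out. Of 3 ascorbate transport genes 0 were called in either direction by edgeR, DESeq2 or limma-voom, with 1 lower at an unadjusted p under 0.05 at 10 µM. The copper amine oxidases outside the lysyl oxidase family, AOC2 and AOC3, rose by 2.08 ± 0.32 (adjusted p = 0.000801) and 2.58 ± 0.51 (adjusted p = 0.00372) from 1.09 ± 0.339 and 0.293 ± 0.0268 CPM.

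Most of the genes listed as responding to hypoxia in many cell types were also lower. Of 15 such genes outside the 10 enzymes, 10 were called lower and 0 higher at each dose. The shares of all genes tested were 2.72% lower and 2.14% higher at 5 µM, and 10.5% and 8.57% at 10 µM. The list had 0 higher at an unadjusted p under 0.05 and 0 higher in DESeq2 and limma-voom. The median log2 fold change of the 15 was −0.64 at 5 µM and −0.76 at 10 µM. CA9, a carbonic anhydrase, fell by 1.33 ± 0.11 at 5 µM (adjusted p = 6.73e-05) and fell by 3.02 ± 0.11 at 10 µM (adjusted p = 1.61e-07). NDRG1, a stress-responsive gene, changed by −1.28 ± 0.06 (adjusted p = 3.62e-06) and −1.99 ± 0.06 (adjusted p = 4.81e-08). The glycolytic regulator genes PFKFB4 and PDK1 changed by −1.43 ± 0.08 (adjusted p = 1.44e-06) and −1.12 ± 0.10 (adjusted p = 2.16e-05) at 10 µM. Of the 4 tested genes for HIF hydroxylases and the transmembrane prolyl hydroxylase, 0 were called at 10 µM by edgeR, DESeq2 or limma-voom, with 1 lower at an unadjusted p under 0.05. That gene was EGLN1, a HIF prolyl hydroxylase, which fell by 0.46 ± 0.08 (adjusted p = 0.00184), below the fold limit.

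The regulators of matrix genes that respond to TGF-beta split in both directions. At 10 µM 3 of 10 were called lower and 2 higher, against 10.5% and 8.57% of all genes tested. TGFBI, a matrix adhesion protein, fell by 2.13 ± 0.07 (adjusted p = 8.31e-08) and the receptor gene TGFBR2 fell by 1.11 ± 0.17 (adjusted p = 0.000936), whereas CTGF, a matricellular protein gene, rose by 1.88 ± 0.07 (adjusted p = 1.41e-07).

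**Figure D4:**
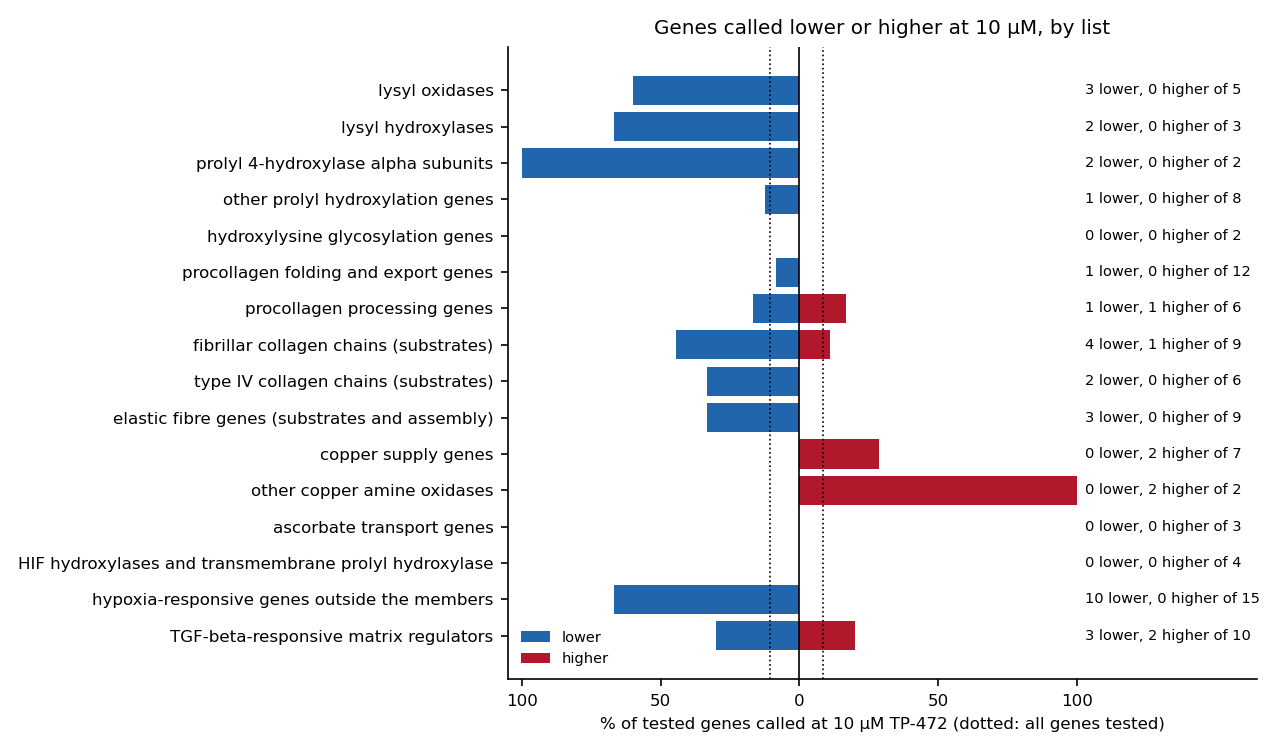
Percentage of the tested genes of each list (y axis) called lower (left) or higher (right) at 10 µM TP-472 by edgeR's test with a fold of at least 1.5 (x axis), with the counts at the right. Dotted lines are the shares among all tested genes, 10.5% lower and 8.57% higher; the 3 enzyme classes and the hypoxia-responsive list extend farthest to the left.

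Genes used as markers of other cell types were also measured in these A375 libraries. The 5 fibroblast markers, a cell type that makes much of the collagen of tissues, had sums of 28.4 to 30.4 CPM in the DMSO libraries, 18.1 to 20.7 CPM in those at 5 µM and 9.98 to 14.6 CPM in those at 10 µM. Of that list PDGFRB held most, at a mean of 22.8 CPM in DMSO, followed by PDGFRA at 3.31, LUM at 2.41, DCN at 0.661 and COL3A1 at 0.461 CPM, and LUM and DCN had higher means at 5 µM, 3.71 and 0.776 CPM. The 5 markers of dedifferentiated melanoma had sums of 1473 to 1502 CPM in the DMSO libraries, 1129 to 1142 CPM in those at 5 µM and 787 to 1045 CPM in those at 10 µM. From DMSO to 10 µM the keratinocyte sums went from 49.4 to 56.7 CPM to 67.1 to 97.7 CPM, mostly KRT10. Between the same groups the leukocyte sums went from 53.4 to 58.9 CPM to 87.4 to 131 CPM, almost all CD68. The endothelial sums went from 7.75 to 9.55 CPM to 4.61 to 5.71 CPM. In that list TIE1 fell most, from a mean of 5.66 to 1.94 CPM, while CDH5 and VWF had higher means at 10 µM than in DMSO. The T cell marker CD3E was at 0 in every library. The part of these lists in the results on the enzymes was not tested. All libraries come from 1 cell line, so these sums are transcript levels of that culture and not numbers of cells of each type.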

How the data were processed

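Total RNA from A375 cells was sequenced on an Illumina HiSeq system. The cited protocol names oligo-dT selection, while the series design text names ribosomal RNA depletion. Expected counts for each gene symbol, not scaled to library size, are what the authors deposited, in 1 table with a column for each of 9 libraries. The submitters' processing notes name Bowtie2 2.1.0, RSEM 1.2.15 and hg38, and the sources used here do not name the annotation.

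Expected counts were rounded to whole numbers and filtered with filterByExpr (minimum count 10), which left 16417 genes. All 3 groups were fitted together in edgeR 4.0.16 (R 4.3.3) with TMM factors of 0.957 to 1.03, and the quasi-likelihood F test was adjusted by Benjamini-Hochberg over all genes tested. SE is the size of the log2 fold change over the square root of F. Exon lengths are unions of GENCODE exons on GRCh38. Tables were made with Python 3.11.15, pandas 2.3.3 and numpy 2.4.6. The pipeline was tested on simulated data.

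Alternatives were other scaling factors, filters and thresholds, DESeq2 1.42.0, limma-voom (limma 3.58.1), fits of 2 groups, a replicate block and leaving out each library. Removal of the trend with length and GC content, and of ribosomal RNA genes, was added after seeing the data. Same-numbered libraries did not deviate together (correlations of −0.0493 to 0.0322), so no pairing by number was seen. The labels do not say if the numbers pair samples, and these correlations cannot exclude it.

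The genes and lists were chosen with earlier results of these data known. Named genes are the 10 enzymes, up to 4 genes of each other list with the largest change at 10 µM and a mean of at least 1 CPM, overlapping genes, and the 3 nearest profiles per class. CTGF is the table's symbol for CCN2. The values of 1 gene that this rule names are not reported here.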

Additional observations from a re-analysis of the deposited data

How the results depend on the processing

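The count of enzyme genes called lower at 10 µM was 7 under every other filter, scaling, tool and left-out library, 8 with no fold limit and 5 with a 2-fold limit. At 5 µM the count of 4 became 7 with no fold limit, 1 with a 2-fold limit and 2 with the trend in length and GC content removed. It was 5 with no filter beyond a count above 0, and 5 with ribosomal RNA genes left out. Between the doses the count of 3 became 8 with no fold limit, 0 with a 2-fold limit (8 lower and 0 higher at an unadjusted p under 0.05 with no fold limit), 1 with upper-quartile factors and 1 with the trend removed. It was 2 in the further settings named with that comparison above. Limits on fold and p move counts by construction, and the cause of the other shifts was not tested. LOX at 5 µM changed sign, at 0.00064 with upper-quartile factors, 0.0207 with the trend removed and −0.23 to 0.34 with each library left out.

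Over all genes, 799 were called at 5 µM, 3137 at 10 µM and 658 between doses. These became 1676, 5634 and 1379 with no fold limit and 317, 1396 and 207 with a 2-fold limit. An adjusted p under 0.01 gave 474 at 5 µM and 323 between doses, and fits of 2 groups gave 1320 and 266. Leaving out each library gave 480 to 1241 at 5 µM, where DMSO replicate 2 gave the lowest and 10 µM replicate 1 the highest count, 2523 to 3443 at 10 µM, and 379 to 871 between doses, with 390, 379 and 389 on leaving out a 5 µM library and 475, 467 and 470 on leaving out a DMSO library. With the replicate block the enzyme counts stayed at 4, 7 and 3 and the counts of all genes were 687, 3005 and 556. The adjusted p of PLOD2 at 5 µM rose to at most 0.0641 on leaving out a DMSO or 5 µM library. Depth limits what can be said of LOX and LOXL1, with at most 60 counts in a library.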
